A study of Capra hircus with 9 samples.

Results

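Decorin (DCN), platelet-derived growth factor receptors alpha and beta (PDGFRA, PDGFRB) and vimentin (VIM) are genes by which fibroblasts and other mesenchymal cells are commonly recognised, and smooth muscle actin (ACTA2) is their contractile counterpart. Transcripts were chosen by the protein description that the authors gave them, which yielded 7 of the 9131 transcripts with values, from 5 genes. These 9131 are the transcripts that the authors listed as differentially expressed, by a rule that the sources used here do not give. Below, "all transcripts" means this list. Its shares, medians and percentiles therefore do not describe all assembled transcripts. DCN and PDGFRA had 2 transcripts each, and PDGFRB, VIM and ACTA2 had 1 each. A further 2 transcripts described as aortic smooth muscle actin stand in the list of all 51299 assembled transcripts but not among those with values, so their levels were not analysed here. The genes of the lists below were also sought only among transcripts with values. Those not matched may be absent there or lack a description of their own. Counts of matched genes that rose are thus counts within the authors' selection. Poly(A) RNA of mammary gland from Xinong Saanen goats, a dairy breed, was sequenced in 9 samples, 3 in each of 3 stages. The lactation samples were taken 100 days after kidding and the dry-off samples 310 days after it. The non-lactation samples came from goats that were neither milking nor pregnant. Nothing in the labels ties the 3 samples of a stage to different animals, so the authors' p-values may rest on technical spread alone. No value per sample was analysed here: each level below is the authors' mean RPKM of a stage (a read density per transcript length and library size), without an SD, and depth per sample is unknown. A transcript is said to rise or fall where the authors' false discovery rate (FDR) is below 0.05, by a test that the sources used here do not name.

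The stroma of the mammary gland surrounds the epithelial ducts and alveoli. Fibroblasts of this stroma secrete collagen and the proteoglycans that organise it, and carry receptors for platelet-derived growth factor, which drives mesenchymal cells to divide and migrate. Myoepithelial cells, which wrap the alveoli and contract to eject milk, and the smooth muscle of vessels hold large amounts of smooth muscle actin. When milk removal stops the alveolar epithelium regresses and stroma takes up more of the gland. In whole tissue, a change in the number of cells of a type and a change in RNA per cell cannot be told apart.

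DCN encodes decorin, a small leucine-rich proteoglycan of connective tissue that binds collagen fibrils and transforming growth factor beta. The more abundant DCN transcript had means of 43.5, 614 and 424 RPKM in lactation, dry-off and non-lactation by the authors' deposited table. The other DCN transcript, an alternative sequence of the same assembled component that can share its reads, had 37.3, 534 and 368 RPKM in the same stages of the authors' deposited table. Both were lowest in lactation and highest in dry-off, and the ratio of the first to the second was 1.17 in lactation and 1.15 in both other stages. The first rose 14.1-fold from lactation to dry-off (FDR 0.00374 by the authors' deposited table) and the second 14.3-fold (FDR 0.00364 there).

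PDGFRA, the receptor that marks many tissue fibroblasts, had the widest range of the 5 genes and, taking the most abundant transcript of each gene, the lowest level in every stage. Its more abundant transcript had 0.892, 35.7 and 14.3 RPKM in lactation, dry-off and non-lactation by the authors' deposited table. A second transcript with the same description, from another assembled component, had 0.470, 19.4 and 8.44 RPKM by the authors' deposited table. Both lactation means were below 1 RPKM, at percentiles 39.0 and 22.7 of all transcripts of that stage, while in dry-off they stood at percentiles 91.0 and 82.9. The rises were 40.0-fold (FDR 0.00498) and 41.2-fold (FDR 0.00580) by the authors' deposited table. These folds rest on low lactation means: with 1 RPKM added to each mean they were 19.4-fold and 13.9-fold, the second then close to the 13.8-fold and 13.97-fold of DCN on the same scale. The first was 1.90, 1.84 and 1.69 times the second in lactation, dry-off and non-lactation. Whether these components are parts of 1 gene was not tested.

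PDGFRB, the receptor typical of pericytes and also of fibroblasts, had 3.65, 40.4 and 20.9 RPKM in lactation, dry-off and non-lactation by the authors' deposited table. Its stage means followed the order of PDGFRA, with lactation lowest and dry-off highest. The dry-off mean was 11.1 times the lactation mean, but with a p-value of 0.0624 and an FDR of 0.109 by the authors' deposited table the difference did not pass. VIM, the intermediate filament protein of mesenchymal cells, which leukocytes and endothelium also make, had 172, 984 and 544 RPKM in lactation, dry-off and non-lactation by the authors' deposited table. It rose 5.73-fold at dry-off (FDR 0.00527 by the authors' deposited table) and stood at percentiles 99.2, 99.5 and 99.5 of all transcripts in lactation, dry-off and non-lactation.

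ACTA2 was the highest of the 5 genes in lactation and the one that differed least between stages. Its means were 303, 733 and 489 RPKM in lactation, dry-off and non-lactation by the authors' deposited table. The dry-off mean was 2.42 times that of lactation, with a p-value of 0.0325 and an FDR of 0.0705 by the authors' deposited table, so it did not pass. Actin genes are close in sequence and the reads were short, so counts could be split among them. The most abundant of 5 transcripts described as beta/gamma actin, the actins of the general cytoskeleton, had 204, 829 and 496 RPKM in lactation, dry-off and non-lactation by the authors' deposited table (dry-off against lactation, FDR 0.0255). Of these 5 transcripts 2 rose, and their log2 differences at dry-off ran from 1.49 to 2.19, against 1.28 for ACTA2.

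**Figure D1:**
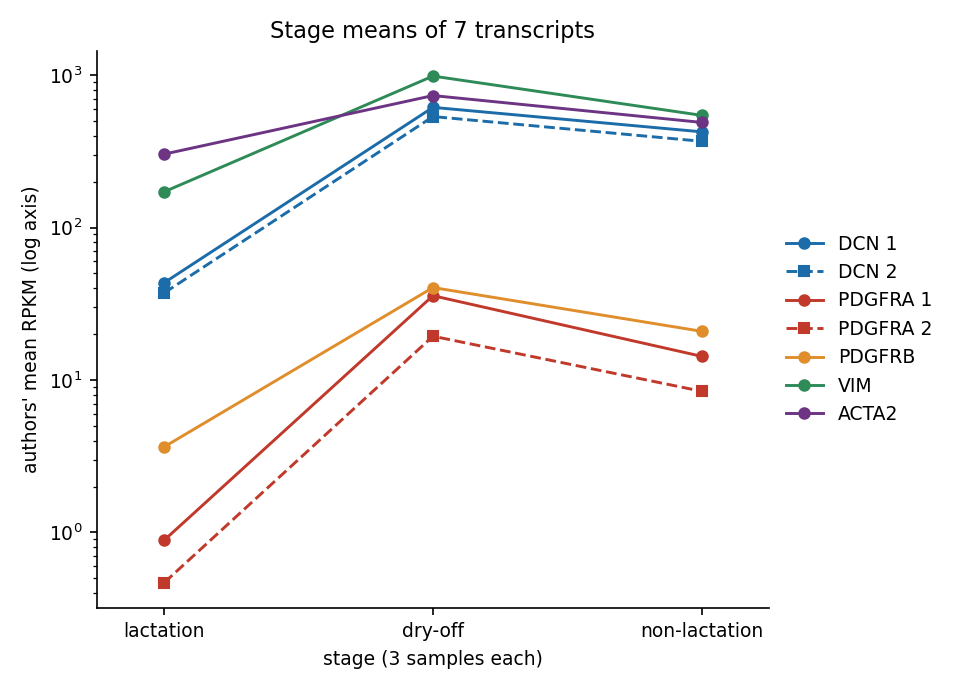
Authors' mean RPKM (log axis) of the 7 transcripts in each stage, with 3 samples per stage; points are stage means, without an error since none is given, and a dashed line marks the second transcript of DCN or PDGFRA. All 7 are lowest in lactation and highest in dry-off; VIM lies below ACTA2 in lactation (172 against 303 RPKM) and above it in dry-off (984 against 733 RPKM).

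Taking the most abundant transcript of each gene, the order of levels in lactation ran from ACTA2 through VIM, DCN and PDGFRB to PDGFRA, and in both other stages VIM stood above ACTA2 with the rest in the same order. That order depends on using 1 transcript per gene. Summed over its transcripts, DCN had 80.8, 1148 and 792 RPKM in lactation, dry-off and non-lactation, which placed it above VIM and ACTA2 at dry-off and in non-lactation. Summed PDGFRA had 1.36, 55.1 and 22.7 RPKM, which placed it above PDGFRB in the same stages but not in lactation. Such sums may count the same RNA more than once where sequences share reads or are parts of 1 mRNA, which was not tested. As ratios of RPKM levels of those single transcripts, VIM was 0.567 times ACTA2 in lactation, against 1.34 times at dry-off and 1.11 times in non-lactation. DCN was 0.144 times ACTA2 in lactation, against 0.837 times at dry-off and 0.867 times in non-lactation, and 0.253, 0.624 and 0.780 times VIM. PDGFRA was 0.244 times PDGFRB in lactation, against 0.884 times at dry-off and 0.685 times in non-lactation. In these pairs the lactation ratio was the lowest of the 3 stages, whereas DCN over PDGFRA was highest in lactation, at 48.8, against 17.2 at dry-off and 29.7 in non-lactation. No spread is given for the stage means, so whether neighbours in these orders differ was not tested.

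Dry-off was compared with lactation to ask which of these genes differ once milking ends. Of the 7 transcripts 5 rose, those of DCN, PDGFRA and VIM, and none fell. By the same rule 65.9% of the 9129 listed transcripts with a p-value were higher in dry-off. The count itself is close to that share, which comes from a list the authors selected as differentially expressed. At an FDR below 0.01 the same 5 passed, against 16.4% of all transcripts, and at an unadjusted p-value below 0.05 ACTA2 was added, against 86.9%. The counts are of transcripts, not genes: the 2 of DCN and the 2 of PDGFRA may not be independent. The sizes of the differences were more uneven. The median log2 difference over the whole table was 2.09, and RPKM is a share of each library, in which the milk transcript alpha-lactalbumin (LALBA) alone went from 60951 RPKM in lactation to 960.4 RPKM at dry-off by the authors' deposited table. The part of that fall in the differences reported here was not tested. Relative to the table median, the log2 difference was 3.24 and 3.28 higher for the PDGFRA transcripts, 1.73 and 1.75 higher for DCN, 1.38 higher for PDGFRB and 0.43 higher for VIM. ACTA2, at log2 1.28, lay at −0.81 from that median, so its higher RPKM in dry-off turns into a lower value on this scale. It stayed higher (0.27) when 44 cytosolic ribosomal protein transcripts, with a median of 1.00, were the reference. Those 44 come from the same list of differentially expressed transcripts, so neither reference is known to be stable. Among all transcripts the log2 differences stood at percentiles 98.9 for both PDGFRA transcripts, 91.3 and 91.6 for DCN, 86.9 for PDGFRB, 65.9 for VIM and 16.7 for ACTA2.

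**Figure D2:**
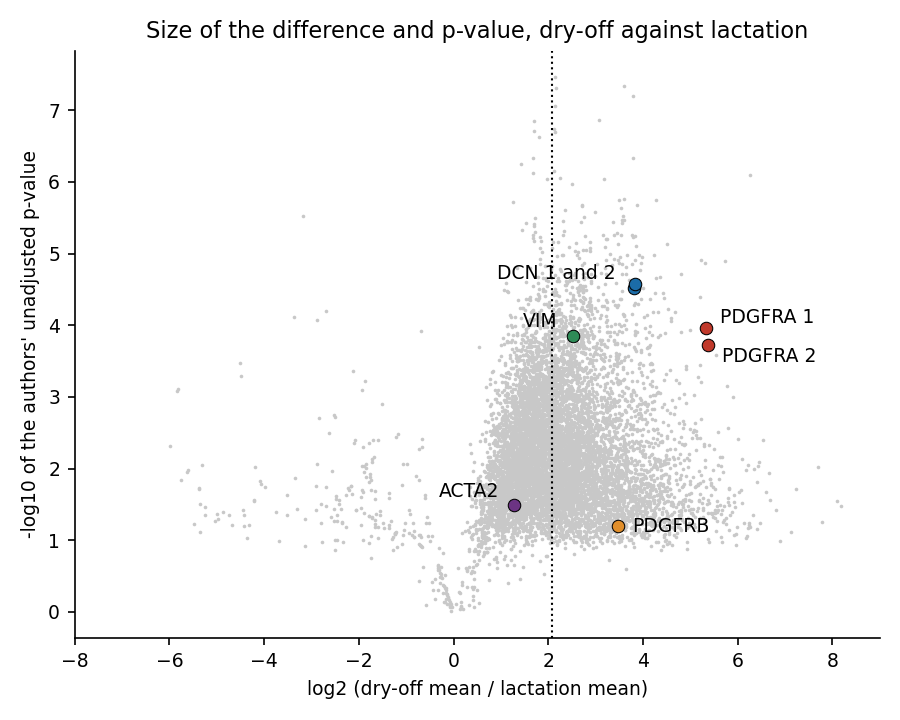
Log2 ratio of the dry-off to the lactation mean (x axis) against the −log10 of the authors' unadjusted p-value (y axis) for each transcript, with the 7 transcripts in colour, all others in grey and the table median as a dotted line. PDGFRB has a larger difference than VIM (log2 3.47 against 2.52) but a larger p-value (0.0624 against 0.000139), and ACTA2 lies left of the table median.

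Non-lactating glands were compared with lactating ones in the same way. LALBA had 30948 RPKM in non-lactation by the authors' deposited table, between its levels in the other stages. Its part in the RPKM differences of this and the following comparison was not tested. None of the 7 transcripts passed, by the authors' FDR or at an unadjusted p-value below 0.05; of all transcripts 0.0110% were higher by the FDR and 41.5% by the unadjusted p-value. The DCN transcripts had means 9.75 and 9.86 times those of lactation (FDR 0.208 for both by the authors' deposited table). The PDGFRA means were 16.0 and 17.96 times those of lactation (FDR 0.209 and 0.199 by the authors' deposited table), and that of PDGFRB 5.72 times (FDR 0.229). VIM had 3.17 times the lactation mean (FDR 0.273) and ACTA2 1.61 times (FDR 0.200) by the authors' deposited table. The smallest p-values were 0.0518 for the second PDGFRA transcript and 0.0531 for ACTA2 by the authors' deposited table. These log2 differences stood at percentiles 98.3 and 98.6 for PDGFRA, 95.3 and 95.4 for DCN, 87.2 for PDGFRB, 62.7 for VIM and 14.5 for ACTA2 among all transcripts, whose median was 1.39. Against that median ACTA2 was at −0.70.

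Against dry-off, all 7 means were lower in non-lactation and none passed the authors' FDR; among all transcripts, too, 0% were lower by that rule. At an unadjusted p-value below 0.05 the PDGFRA transcripts were lower, 2 of 7, against 38.5% of all transcripts. Their dry-off means were 2.50 times (p = 0.0232, FDR 0.180) and 2.30 times (p = 0.0229, FDR 0.179) those of non-lactation by the authors' deposited table. For DCN the dry-off means were 1.45 times higher for both transcripts (FDR 0.389 and 0.386 by the authors' deposited table), for PDGFRB 1.94 times (FDR 0.362), for VIM 1.81 times (FDR 0.279) and for ACTA2 1.4998 times (FDR 0.301). The table median was −0.70 on the log2 scale. Relative to it the DCN transcripts (0.16 for both) and ACTA2 (0.11) were higher in non-lactation, and PDGFRA (−0.62 and −0.50), PDGFRB (−0.26) and VIM (−0.16) were lower.

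The non-lactation mean can also be placed on the log2 scale between lactation (0%) and dry-off (100%). DCN kept 86.0% in both of its transcripts, PDGFRA 75.2% and 77.6%, PDGFRB 72.5%, VIM 66.0% and ACTA2 54.1%. The median over the 8105 transcripts whose dry-off mean was at least 2 times that of lactation was 66.7%, with quartiles of 56.4% and 77.0%. DCN stood at percentile 87.9 and 87.8 of these transcripts, VIM at 48.2, near the middle, and ACTA2 at 21.0. Dry-off and non-lactation share the lactation samples as their reference, so these percentages are descriptions with no test. The part of the LALBA levels in them was not tested.

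**Figure D3:**
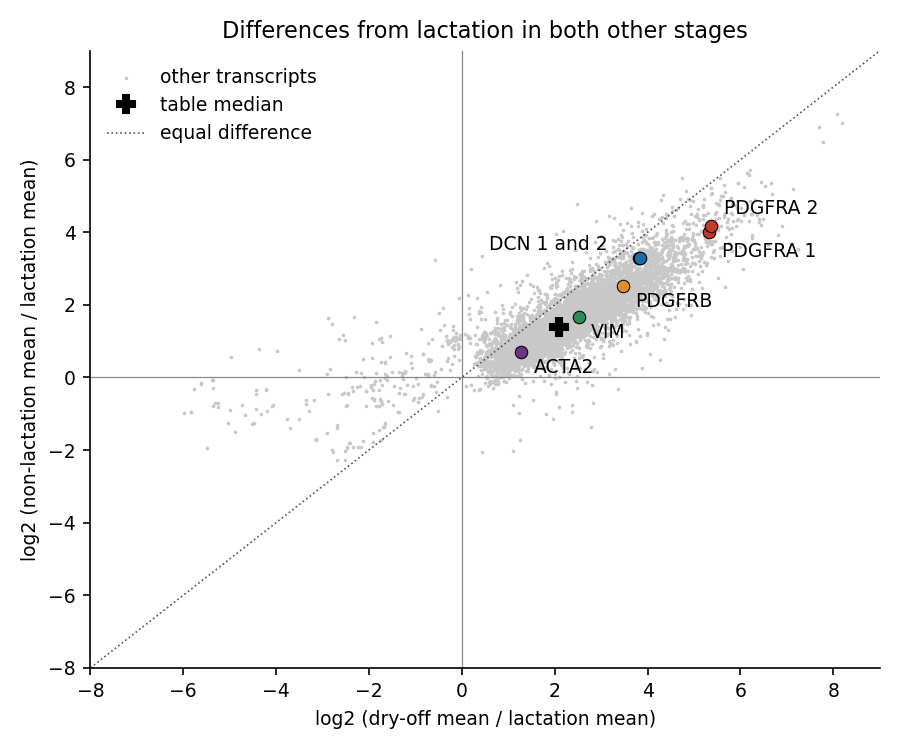
Log2 difference from lactation in dry-off (x axis) and in non-lactation (y axis) for each transcript with means above 0, with the 7 transcripts in colour, other transcripts in grey and the table median as a cross; both axes use the same lactation means. DCN lies closest of the 7 to the dotted line of equal differences (86.0% of its dry-off difference held), and ACTA2 is the only one of the 7 below the table median on both axes.

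The authors sorted transcripts into numbered profiles over the stages. The DCN and PDGFRA transcripts were in profile 11 and PDGFRB, VIM and ACTA2 in profile 14. Profile 11 held 2613 transcripts (28.6% of the table), with a median log2 difference from lactation of 2.40 in dry-off and 2.00 in non-lactation. Profile 14, the most populated, held 5258 transcripts (57.6%), with medians of 2.14 and 1.29. The authors also counted the transcripts correlated with each transcript, by a measure that the sources used here do not give. Those counts were 7097 and 7137 for DCN, 7659 and 7822 for PDGFRA, 7971 for PDGFRB, 7943 for VIM and 7874 for ACTA2. DCN stood at percentiles 35.8 and 36.4 of all transcripts and PDGFRB at 82.0.

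The authors' pathway table listed DCN under TGF-beta signalling, in which decorin acts by binding the growth factor, and ACTA2 under vascular smooth muscle contraction. PDGFRA stood in 11 pathways and PDGFRB in 10 of these, all but endocytosis, among them MAPK signalling, focal adhesion and regulation of the actin cytoskeleton; VIM stood in none. Of 77 TGF-beta signalling transcripts 60 rose (77.9%) and 0 fell, with a median log2 difference of 2.44. For vascular smooth muscle contraction, 98 of 153 rose (64.1%) and 3 fell, with a median of 2.28. Among the 11 pathways of PDGFRA the share that rose ran from 55.0% for cytokine-cytokine receptor interaction to 74.9% for endocytosis, with 68.6% for focal adhesion. These shares lie on both sides of the 65.9% of all transcripts and were not tested against it.

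Of 16 genes listed as decorin-family proteoglycans or members of TGF-beta signalling, 6 were matched to a single description. Of these 4 rose and none fell, close to the 65.9% of all transcripts, with a median log2 difference of 2.40 beside the table's 2.09. The 4 were all 3 TGF-beta receptors and 1 of 3 proteoglycans. Fibromodulin (FMOD), a collagen-binding relative of decorin, rose from 2.22 to 24.5 RPKM by the authors' deposited table (FDR 0.00570) and had 21.7 RPKM in non-lactation. Lumican (LUM), another relative, had 8.17, 58.4 and 62.5 RPKM in lactation, dry-off and non-lactation by the authors' deposited table (FDR 0.122, not passing). TGFBR2, the receptor that binds TGF-beta ligand, rose from 12.2 to 55.1 RPKM (FDR 0.00822) and the co-receptor TGFBR3 from 6.91 to 29.2 RPKM (FDR 0.0312) by the authors' deposited table. Asporin (ASPN), also of this family, had 2.17 and 13.3 RPKM in lactation and dry-off (FDR 0.104 by the authors' deposited table). Of 3 transcripts described as TGF-beta 1 rose, and the most abundant did not pass (FDR 0.0645 by the authors' deposited table). All 14 transcripts described as latent TGF-beta binding proteins, which hold the growth factor in the matrix, rose.

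Of the PDGF ligands, 2 of 4 transcripts described as PDGF A/B rose, the most abundant from 4.20 to 13.8 RPKM by the authors' deposited table (FDR 0.00257). The PDGF C/D transcript did not pass, with 12.1, 34.1 and 16.1 RPKM in lactation, dry-off and non-lactation by the authors' deposited table (FDR 0.0769). The log2 differences of these transcripts, 1.71 and 1.49, were below the table median, whereas those of both receptors were above it. Downstream, RASA1, a GTPase activator, rose from 2.05 to 9.43 RPKM (FDR 0.00777) and the kinase SRC had 1.396 and 7.38 RPKM (FDR 0.0525) by the authors' deposited table. These were the 2 matched genes of 16 listed, 1 of which rose. Counting ligands, PI3-kinase, phospholipase C gamma and adaptors by family description, 23 of 37 transcripts rose (62.2%) and 0 fell, close to the 65.9% of all transcripts.

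Among other intermediate filament genes, desmin (DES), the filament of muscle cells, rose from 8.30 to 59.2 RPKM by the authors' deposited table (FDR 0.00413), a log2 difference of 2.83 beside 2.52 for VIM. Plectin (PLEC) and dystonin (DST), which link filaments to junctions and other fibres, rose by log2 1.55 and 1.79 (FDR 0.00680 and 0.0371 by the authors' deposited table). Nestin (NES), a filament of progenitor and endothelial cells, had 1.24 and 6.89 RPKM (FDR 0.0856 by the authors' deposited table). Of 15 genes listed 4 were matched, of which 3 rose, with a median log2 difference of 2.13, close to the table's 2.09. Keratins, the filaments of epithelium, carry only family descriptions: the most abundant type II keratin rose from 74.7 to 546 RPKM (FDR 0.0134) and the most abundant type I keratin had 128 and 353 RPKM (FDR 0.0680) by the authors' deposited table. Of 21 lamin and keratin transcripts 16 rose (76.2%), beside 65.9% of all transcripts.

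The matched genes of the contractile apparatus, without family descriptions, had a median log2 difference of 1.52, below the table median. Whether this list differs from the others was not tested. Of 16 genes listed 6 were matched. By the most abundant transcript of each, 1 rose, and 5 were above their lactation level at an unadjusted p-value below 0.05. Of all transcripts 65.9% and 86.9% were higher by these rules. The 1 was caldesmon (CALD1), a regulator of actin and myosin, from 5.94 to 19.98 RPKM (FDR 0.0199 by the authors' deposited table). Tropomyosins TPM1 and TPM2, which lie along actin filaments, had log2 differences of 1.11 (FDR 0.0654) and 1.46 (FDR 0.0577), close to the 1.28 of ACTA2, by the authors' deposited table. Vinculin (VCL), of adhesion sites, had 3.04 and 21.6 RPKM (FDR 0.0682) by the authors' deposited table. Counting every transcript of the matched genes, 13 of 13 rose for CALD1, 2 of 3 for TPM1 and 1 of 2 for VCL. No transcript of the other matched genes rose. Of 42 family transcripts, for myosin chains and their kinase, filamin and actinin, 30 rose (71.4%), and the most abundant myosin heavy chain went from 16.3 to 139.7 RPKM (FDR 0.0281 by the authors' deposited table). The most abundant transcript of each family had a log2 difference of 3.10 for myosin heavy chain, 2.99 for the kinase and 2.50 for actinin. For regulatory light chain it was 2.09, near the table median, and for filamin 1.78, below it.

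Of 22 collagen and matrix genes listed 4 were matched to a single description, and these 4 rose, with a median log2 difference of 3.49. The list's family descriptions did otherwise: 15 of 37 transcripts rose (40.5%), beside 65.9% of all transcripts. Fibronectin (FN1) rose from 0.570 to 7.74 RPKM (FDR 0.0113), COL14A1, a fibril-associated collagen, from 0.857 to 9.62 RPKM (FDR 0.0106), and fibrillin 1 (FBN1) from 0.663 to 6.05 RPKM (FDR 0.00585) by the authors' deposited table. Lysyl oxidase (LOX), which crosslinks collagen, rose from 0.558 to 6.25 RPKM (FDR 0.0310) and had 6.15 RPKM in non-lactation by the authors' deposited table. All 4 genes had lactation means below 1 RPKM, so their log2 differences rest on low levels, as for PDGFRA. Of the family transcripts, 6 of 9 fibrillar collagen, 1 of 7 collagen VI, 5 of 18 tenascin and 3 of 3 prolyl 4-hydroxylase alpha transcripts rose. The most abundant tenascin, a matrix glycoprotein, had a log2 difference of 1.83, below the table median. The most abundant fibrillar collagen had 29.3, 262 and 637 RPKM in lactation, dry-off and non-lactation by the authors' deposited table. Unlike the 7 transcripts, its mean was highest in non-lactation, although that stage passed neither against lactation (FDR 0.216) nor against dry-off (FDR 0.351 by the authors' deposited table).

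The label of a fibroblast set was checked against 11 fibroblast markers, of which 7 were matched; DCN, PDGFRA, PDGFRB and VIM are 4 of these, so the check rests on the other 3. THY1, a surface protein of fibroblasts, rose from 8.36 to 78.5 RPKM (FDR 0.00422), and FAP, a fibroblast surface protease, from 2.04 to 16.5 RPKM (FDR 0.0338) by the authors' deposited table. LUM, given above, did not pass, so 2 of the 3 rose, beside 65.9% of all transcripts. The summed mean of these 3 was 18.6, 153 and 135 RPKM in lactation, dry-off and non-lactation, and that of all 7 was 238, 1827 and 1139 RPKM. Of the pericyte and smooth muscle markers, 2 of 4 matched of 7 listed rose, MCAM and DES. PDGFRB itself, given above, is also among the 4 and did not pass. Nor did CSPG4, which had 0.595, 1.37 and 1.26 RPKM in lactation, dry-off and non-lactation by the authors' deposited table. Of 23 transcripts with the list's family descriptions, NOTCH and myosin heavy chain, 15 rose (65.2%). For myoepithelium, 2 of 8 listed were matched and none rose: ACTA2, and the oxytocin receptor OXTR, with 1.18, 0.892 and 4.44 RPKM by the authors' deposited table. The list's family descriptions did otherwise: of 22 transcripts described as keratins or myosin light chain kinase (MYLK) 16 rose (72.7%). The most abundant MYLK transcript had 7.89, 62.7 and 34.4 RPKM by the authors' deposited table (FDR 0.0551, not passing), and 3 of 5 MYLK transcripts rose. The keratins that define myoepithelium could not be told apart from other keratins.

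Markers of other cell types were counted in the same way, beside the 65.9% of all transcripts that rose. Among these cell types, leukocytes and endothelium also make vimentin. Of 8 macrophage markers 7 were matched, of which 6 rose, with a median log2 difference of 3.57 and summed means of 70.2, 669.6 and 267 RPKM in lactation, dry-off and non-lactation. Of 10 transcripts with that list's family description, MRC, 5 rose (50.0%). Of 6 T cell markers 4 were matched, of which 2 rose, with a median of 4.08 and sums of 13.5, 220 and 79.4 RPKM. Of 10 endothelial markers 6 were matched, of which 3 rose, with a median of 2.58 and sums of 62.0, 413 and 282 RPKM. Of 9 luminal epithelium markers 3 were matched: CDH1 rose, LALBA fell, and EPCAM had 40.0 and 82.3 RPKM (FDR 0.0682 by the authors' deposited table), beside 0.690% of all transcripts that fell. Their sums were 60999, 1092 and 31047 RPKM, most of which was LALBA. Of 7 transcripts described as ELF3/5 or claudin 3 rose (42.9%) and 1 fell. The 1 that fell was the most abundant ELF3/5 transcript, from 81.9 to 24.8 RPKM (FDR 0.0314 by the authors' deposited table). Of 6 adipocyte markers 1 was matched, LIPE, which rose from 1.73 to 4.34 RPKM by the authors' deposited table (FDR 0.0140). None of these matched markers was listed at 0 in any stage. The part of these cells in the rise of VIM was not tested.

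**Figure D4:**
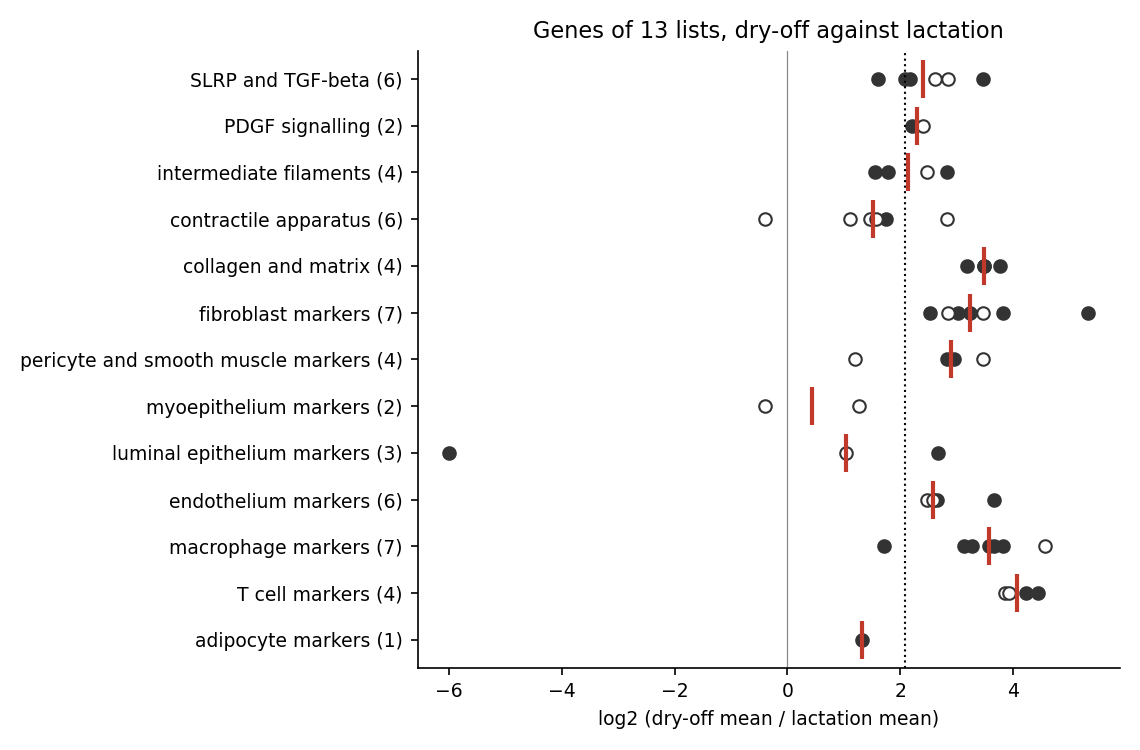
Log2 ratio of the dry-off to the lactation mean for each matched gene of 13 lists (the number of genes in brackets; SLRP, small leucine-rich proteoglycans). Filled points have an FDR below 0.05, open points do not, the red bar is the list's median and the dotted line the table median of 2.09. Fibroblast markers have a median of 3.23, but 4 of the 7 are DCN, PDGFRA, PDGFRB and VIM themselves, and the other 3 have a median of 3.02. The matched genes of the contractile apparatus have a median of 1.52. Transcripts with only a family description are not shown.

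The transcripts most like each gene were sought among 2752 components with at least 10 RPKM in 1 stage, by the Euclidean distance between the 2 log2 differences from lactation, after adding 1 RPKM to each mean. They describe likeness over 3 stage means only. DCN was nearest to complement component 4 (distances 0.182 and 0.207 for its components), the collagen-degrading protease cathepsin K (0.246), galectin 3 (0.295) and the membrane metalloproteinase MMP14 (0.300). PDGFRA was nearest to the complement proteases C1s (0.0888) and C1r (0.144), C1 inhibitor (0.213), a lymphocyte antigen 6 complex (0.286) and a second component of the macrophage receptor CSF1R (0.296). By the authors' deposited table C1s had 8.33, 181 and 79.2 RPKM in lactation, dry-off and non-lactation. The 5 nearest transcripts lay within 0.0284 of VIM and within 0.0209 of ACTA2. Those of VIM were MYCBP2, cathepsin C, RNF19A, a ubiquitin hydrolase 9/24 and Fes/Fps kinase by description, and those of ACTA2 connexin GJA4 (gap junction alpha 4, known from arterial endothelium), heme oxygenase, phosphoglucomutase, a testis-specific kinase and a protein kinase A regulatory subunit. With 0.1 RPKM added, 3 of 5 for DCN, 1 of 5 for PDGFRA, 0 of 5 for VIM and 1 of 5 for ACTA2 were among the nearest again.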

How the data were processed

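Per the labels' protocols, poly(A) RNA was sequenced as single-end reads; FastQC is named in the submitters' processing notes, and the sources used here name no assembler, aligner, counter or test. Per the file headers, the authors deposited stage mean RPKM values and, for every pair of stages, an FDR and an unadjusted p-value. Depth per sample is unknown. They also deposited counts of correlated transcripts, profiles and a count of transcripts per pathway, per the file headers. Log2 ratios were computed here from the authors' mean RPKM with nothing added, over the 8932 transcripts with a mean above 0 in both stages compared (9111 for non-lactation against dry-off). No test of expression was computed, because only means are given. Pathways beside the descriptions were not used: for the 7 transcripts they shared 0 entries with the pathway table.

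Members, lists and rules were chosen with earlier results of these data known. Named genes are all member transcripts, up to 4 matched genes per list with the highest mean over the stages, and the 5 nearest transcripts; family descriptions, pathways, ASPN and FAP were added after their values were seen. A gene is represented by its transcript with the highest mean. Descriptions were matched to symbols by wording. The search for nearest transcripts was tried on planted near-copies of transcripts with at least 10 RPKM in lactation. This checked the procedure only, not how stable the neighbours named here are. Alternatives were other thresholds, a mean of at least 1 RPKM, pseudocounts of 1 and 0.1 RPKM, summed transcripts and 2 reference medians. Sequences were not used here. Python 3.11.15, numpy 2.4.6, pandas 2.3.3 and matplotlib 3.10.9 were used.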

Additional observations from a re-analysis of the deposited data

How the results depend on the processing

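The 5 calls among 7 transcripts for dry-off against lactation became 3 when both stage means had to reach 1 RPKM, because both PDGFRA transcripts are below 1 RPKM in lactation; with an FDR below 0.01 the count was 5, with an unadjusted p-value below 0.05 it was 6, and all 5 stayed above the table and the ribosomal median. For non-lactation against dry-off, 0 calls became 2 at an unadjusted p-value below 0.05; for non-lactation against lactation the count was 0 in each setting tried. Of 21 log2 differences (7 transcripts in 3 comparisons), none changed sign with 1 or 0.1 RPKM added, but with 1 RPKM added the dry-off rises of PDGFRA went from log2 5.32 and 5.37 to 4.28 and 3.79. Centring on the table median reversed 5 of them: ACTA2 against lactation in dry-off (−0.81) and non-lactation (−0.70), and, for non-lactation against dry-off, the DCN transcripts (0.16 and 0.16) and ACTA2 (0.11). Centring on the ribosomal median, an alternative chosen after seeing the data, reversed 3 of 21, all for non-lactation against dry-off: DCN (0.091 and 0.085) and ACTA2 (0.040). Summing the transcripts of DCN or PDGFRA changed no direction but changed the order of the genes' levels. No paired analysis was possible because the files give stage means and no value per sample; leaving out a replicate was not run for the same reason. Depth and spread per sample are unknown, so precision cannot be given.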
